A study of Mus musculus with 8 samples.

Results

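The Schlafen genes of the mouse were examined in CD8+ T cells taken from the spleen, the cytotoxic lineage of T lymphocytes, before and after 5 days in culture. The group comprised the 7 genes *Slfn1*, *Slfn2*, *Slfn3*, *Slfn4*, *Slfn5*, *Slfn8* and *Slfn9*, picked by symbol from the 48321 gene symbols that each count table listed, and all 7 were found. The mice were C57BL/6, and the series as a whole is described as carrying *Satb1* F/F alleles, in which loxP sites flank the gene, together with *E8I-cre*, a Cre recombinase transgene active in mature cells of the CD8 lineage. *Satb1* encodes a chromatin organiser of the T-cell nucleus. Total RNA was sequenced in 8 libraries: 2 labelled WT and 2 labelled KO at day 0, and 2 labelled WT and 2 labelled KO at day 5. Whether WT libraries carried the floxed alleles or the Cre, how the cells were stimulated, and the age of the mice are not given in the sources used here. Nothing in the labels says that libraries of a group came from separate animals or cultures, so p-values measure the spread between these libraries, which may be technical.

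Schlafen proteins form a family that expanded in rodents as a gene cluster. They share an amino-terminal core that binds and, in some members, cuts RNA, and they are grouped by size. The short proteins SLFN1 and SLFN2 hold little more than that core, the intermediate SLFN3 and SLFN4 add a linker domain, and the long SLFN5, SLFN8 and SLFN9 also carry a helicase-like domain and reach the nucleus. The family was named from the German word for sleep for the arrest of growth that its founding member causes when forced in thymocytes. Loss of *Slfn2* function leaves T cells unable to hold quiescence, and SLFN2 protein shields transfer RNAs from cleavage. Many members are induced by type I interferon.

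The 7 genes lie on chromosome 11 within 263.8 kb (GRCm38, chr11:82951349-83215154; GENCODE M21 gene models). In order along the chromosome these are *Slfn5* (plus strand, chr11:82951349-82964840), *Slfn9* (minus, chr11:82978390-82991830), *Slfn8* (minus, chr11:83002158-83020810), *Slfn2* (plus, chr11:83065112-83070678), *Slfn1* (plus, chr11:83116849-83122670), *Slfn4* (plus, chr11:83175186-83190216) and *Slfn3* (plus, chr11:83191330-83215154). The transcribed pseudogene *Slfn10-ps* (minus, chr11:83028130-83040042) lies between *Slfn8* and *Slfn2*. The genes are related in sequence, and reads that aligned to more than 1 place were set aside in the counting. Of all 50-base windows along the annotated transcripts, 16% in *Slfn3*, 14.6% in *Slfn8*, 11.9% in *Slfn9*, 11.3% in *Slfn4* and 11.1% in *Slfn5* also occurred in another gene, against 4.27% in *Slfn2* and 0.606% in *Slfn1*. In *Slfn5* most of these windows (7.38% of all) lay in *Slfn5os*, an antisense gene at the same place, so that reads there need not align to more than 1 place but cannot be assigned to a gene without strand, and the overlap with exons of the other strand covered 8.84% of its exon length. Reads over such windows may be missing from the counts, so the levels of the first 5 are uncertain, by an amount that these shares do not measure. The strand setting of the counting is not given in the sources used here.

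Promoter sequences are shown for 5 members, because *Slfn8* and *Slfn9*, whose promoters are alike, moved in opposite directions over culture in WT, because *Slfn1* and *Slfn2*, the most abundant members, hold a run of bases in common, and because *Slfn5* was the member with the largest fall. Each sequence is RefSeq (GRCm38.p6), 300 bases from 250 before to 50 after the transcript start, written 5′ to 3′ on the strand of the gene. *Slfn8* has 2 RefSeq starts, of which the more upstream is shown, and the RefSeq start of *Slfn5* lies within the GENCODE span of the gene. In *Slfn8*, *Slfn9* and *Slfn5* the capitals mark GAAANNGAAA, the core of the interferon-stimulated response element that interferon-activated transcription factors bind, or its reverse complement. In *Slfn1* and *Slfn2* they mark the longest run that the promoters of *Slfn1*, *Slfn2* and *Slfn4* had in common.
Slfn8 (minus strand, chr11:83020761-83021060): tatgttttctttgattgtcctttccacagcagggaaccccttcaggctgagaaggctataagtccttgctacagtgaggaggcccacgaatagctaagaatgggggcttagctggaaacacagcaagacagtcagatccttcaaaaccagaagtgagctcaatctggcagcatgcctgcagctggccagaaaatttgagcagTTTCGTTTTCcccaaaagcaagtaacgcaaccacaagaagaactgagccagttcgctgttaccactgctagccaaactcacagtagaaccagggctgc
Slfn9 (minus strand, chr11:82991781-82992080): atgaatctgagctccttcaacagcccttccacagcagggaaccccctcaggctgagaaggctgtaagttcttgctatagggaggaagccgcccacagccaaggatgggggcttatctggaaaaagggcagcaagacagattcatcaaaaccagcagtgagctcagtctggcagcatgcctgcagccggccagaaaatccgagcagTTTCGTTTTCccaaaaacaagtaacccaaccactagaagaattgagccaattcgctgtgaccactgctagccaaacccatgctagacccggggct
Slfn5 (plus strand, chr11:82951852-82952151): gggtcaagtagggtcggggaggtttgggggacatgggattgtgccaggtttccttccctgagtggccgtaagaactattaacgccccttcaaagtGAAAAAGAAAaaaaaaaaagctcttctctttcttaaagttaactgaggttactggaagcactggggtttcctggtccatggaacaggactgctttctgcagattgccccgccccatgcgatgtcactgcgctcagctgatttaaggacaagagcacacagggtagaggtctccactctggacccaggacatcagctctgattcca
Slfn1 (plus strand, chr11:83116570-83116869): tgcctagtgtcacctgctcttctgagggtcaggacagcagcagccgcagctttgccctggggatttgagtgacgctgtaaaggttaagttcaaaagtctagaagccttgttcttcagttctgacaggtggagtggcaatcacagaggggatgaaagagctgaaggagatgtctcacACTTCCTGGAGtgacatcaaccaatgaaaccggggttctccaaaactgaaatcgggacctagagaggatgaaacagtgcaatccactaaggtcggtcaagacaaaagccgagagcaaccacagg
Slfn2 (plus strand, chr11:83064862-83065161): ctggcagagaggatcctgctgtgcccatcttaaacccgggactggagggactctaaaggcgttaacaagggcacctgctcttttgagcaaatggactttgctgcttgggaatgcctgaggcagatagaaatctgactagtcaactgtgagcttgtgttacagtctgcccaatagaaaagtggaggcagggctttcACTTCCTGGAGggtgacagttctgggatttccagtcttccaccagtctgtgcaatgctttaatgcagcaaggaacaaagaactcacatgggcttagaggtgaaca

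Aligned to each other, the *Slfn8* and *Slfn9* promoters were identical at 250 of 300 bases (83.3%). For the other start of *Slfn8*, further downstream, the identity to *Slfn9* was 180 of 300 bases (60%), no higher than that to *Slfn3* (183 of 300, 61%). The *Slfn1* and *Slfn2* promoters were identical at 158 of 300 bases (52.7%), as were those of *Slfn5* and *Slfn2*. *Slfn8* and *Slfn9* both held the GAAANNGAAA core on the opposite strand, beginning at position -48 from the transcript start shown for *Slfn8* (-136 from its other start) and at -45 in *Slfn9*. *Slfn5* held it on its own strand, at -155. The promoters of *Slfn1*, *Slfn2*, *Slfn3* and *Slfn4* held no match on either strand, and 3.44% of the 32851 mouse promoters in the RefSeq table held one. The looser pattern TTCNNNGAA, which STAT factors bind, had no match in any of the 7 genes and was present in 8.3% of all promoters. The run ACTTCCTGGAG, found by comparing the sequences, lay at -74 in *Slfn1*, -55 in *Slfn2* and -73 in *Slfn4*, and occurred in 24 of the 32851 promoters (0.0731%). These matches are descriptions of letters in a window, not of binding.

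Library depth, as reads on genes, was 4170126 to 11117971, and levels are given as CPM, the reads of a gene per 1000000 reads of the library size scaled by the trimmed mean of M-values (TMM). *Satb1*, the targeted gene, was at 97.8 and 91.6 CPM in the day 0 WT libraries and at 144 and 125 CPM in the KO-labelled ones, so that at day 0 it went against the label. At day 5 it was at 96.5 and 116 CPM in WT and at 56.5 and 62.3 CPM in the KO-labelled libraries, a log2 change of -0.84 ± 0.15 (SE, false discovery rate (FDR) 0.0162, quasi-likelihood test of edgeR, Benjamini-Hochberg adjusted). That call was lost without day 5 WT replicate 2 or either day 5 KO-labelled library (FDR up to 0.174 in edgeR). Which part of *Satb1* was deleted is not given in the sources used here, so reads over the rest of the gene may remain. These groups are called KO-labelled libraries throughout, and every direction between genotypes rests on those labels. Summed markers of CD8 T cells (*Cd3e*, *Cd3d*, *Cd8a*, *Cd8b1*, *Trac*) were at 9862 to 10560 CPM at day 0, and at day 5 at 5856 to 5893 CPM in WT and 6719 to 6731 CPM in the KO-labelled libraries. The 3 markers of CD4 T cells summed to 1.36 to 3.58 CPM in WT and 6.06 to 6.26 CPM in the KO-labelled libraries at day 0, and to 2.65 to 3.22 CPM at day 5. At day 0 *Cd40lg* was at 1.61 and 1.13 CPM in WT and at 5.66 and 3.85 CPM in the KO-labelled libraries. *Zbtb7b* was at 1.97 and 0 CPM against 0 and 1.28 CPM, and *Cd4* was at 0.92 CPM or less in these 4 libraries. Summed B-cell markers, nearly all *Cd79b*, were at 121.9 to 124 CPM in WT and 143.2 to 166.4 CPM in the KO-labelled libraries at day 0, and at 67.4 to 68.9 against 81.1 to 84.3 CPM at day 5. Summed markers of monocytes, macrophages and neutrophils were at 13.8 to 22.2 CPM at day 0, and at day 5 at 34.8 to 41.7 CPM in WT and 52.3 to 73.6 CPM in the KO-labelled libraries. Of these 8 markers *Cd68* alone was higher at day 5 (30.69 to 68.43 CPM, against 2.23 to 5.14 CPM at day 0). *Csf1r* went from 6.8 to 11.74 CPM at day 0 to 3.53 to 4.73 CPM at day 5, *Itgam* from 2.06 to 5.2 CPM to 0.48 to 1.47 CPM, and *Ly6g* was at most 1.29 CPM. *Lyz2* was at most 0.43 CPM apart from 3.39 CPM in day 0 WT replicate 2, and *Adgre1*, *Cd14* and *S100a8* were at most 0.37 CPM. Summed NK-cell markers, mostly *Eomes*, were at 10.7 to 17.3 CPM at day 0, and at day 5 at 48.7 to 54.2 CPM in WT and 37.5 to 40.8 CPM in the KO-labelled libraries, with *Ncr1* at 0.72 CPM or less. Dendritic-cell markers summed to 10.8 to 14.3 CPM at day 0 and to 5.64 to 7.47 CPM at day 5. The part of such cells in the differences between days or genotypes was not tested.

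The short members were the most abundant Schlafen transcripts in every group. The 7 genes together reached 1949 and 2206 CPM in the day 0 WT libraries and 2327 and 2102 CPM in the day 0 KO-labelled libraries. By day 5 the sum was 1092 and 694.5 CPM in WT and 757.3 and 594.3 CPM in the KO-labelled libraries, below every day 0 library. *Slfn1* and *Slfn2* made up 84.69% to 92.17% of the counts on the 7 genes in every library. Per kilobase of exon, the scale on which genes can be set side by side, the day 0 WT order of mean levels was *Slfn1* at 592, *Slfn2* at 439, *Slfn8* at 54.7, *Slfn5* at 1.69, *Slfn9* at 1.19, *Slfn3* at 0.416 and *Slfn4* at 0.0796 CPM per kb. No neighbours in that order overlapped at day 0, in either genotype. At day 5 in WT the order was *Slfn1* at 274, *Slfn2* at 186, *Slfn8* at 12, *Slfn9* at 2.54, *Slfn3* at 2.21, *Slfn5* at 0.145 and *Slfn4* at 0.0749 CPM per kb, and the libraries of *Slfn1* and *Slfn2*, of *Slfn9* and *Slfn3*, and of *Slfn5* and *Slfn4* overlapped. *Slfn5* thus went from the place just below *Slfn8* to one below *Slfn9* and *Slfn3*. In the KO-labelled libraries at day 5, *Slfn1* (201), *Slfn2* (137), *Slfn8* (11.4), *Slfn9* (3.12) and *Slfn3* (1.89 CPM per kb) kept that order, and *Slfn4* and *Slfn5* overlapped below them.

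**Figure D1:**
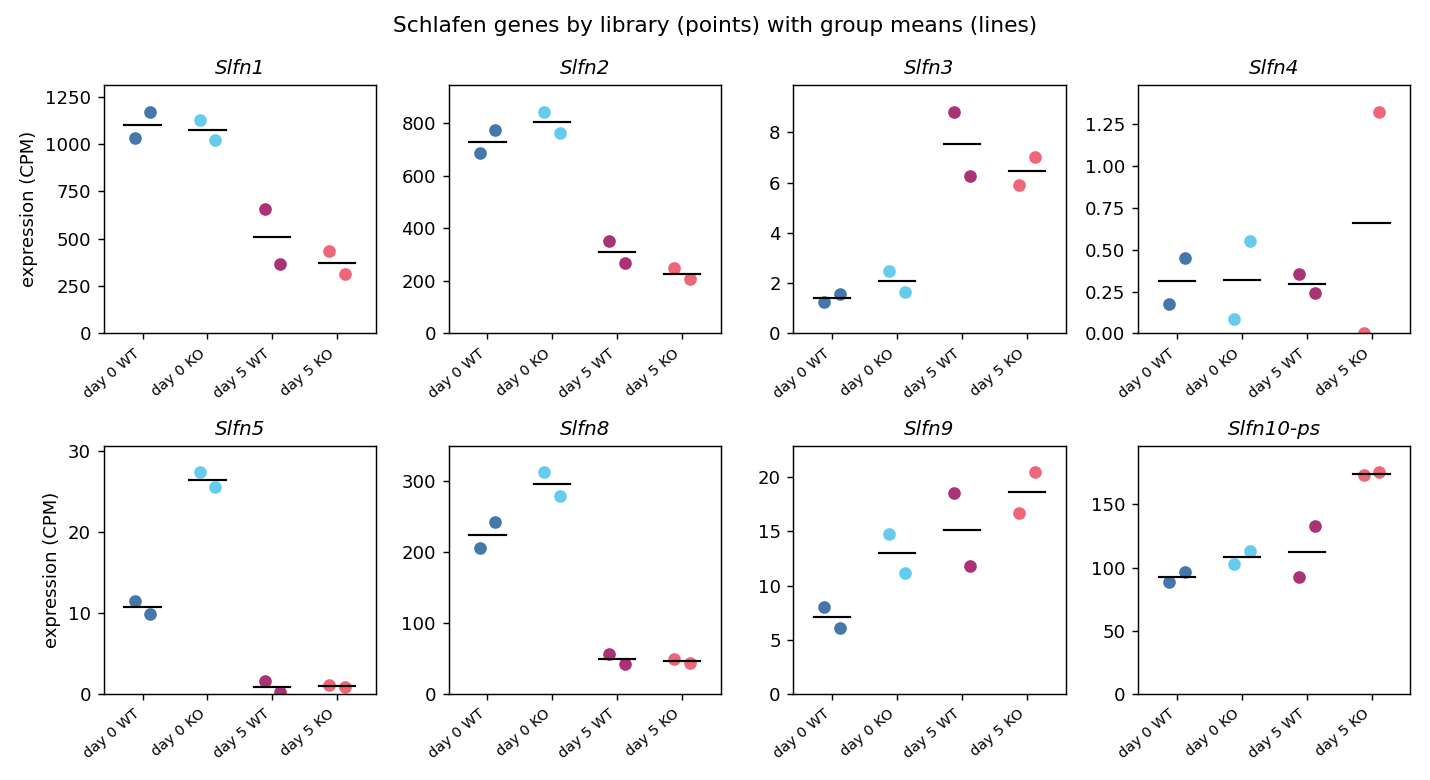
CPM of each Schlafen gene in each of the 8 libraries (points, 2 per group) with the group mean (line), each gene, and *Slfn10-ps*, on its own linear axis from 0. *Slfn1*, *Slfn2*, *Slfn5* and *Slfn8* were lower in all 4 day 5 libraries than in all 4 day 0 libraries, and *Slfn3* was higher.

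Over 5 days of culture in WT cells, 4 members fell (*Slfn1*, *Slfn2*, *Slfn5*, *Slfn8*) and 2 rose (*Slfn3*, *Slfn9*), from a 10.51-fold fall of *Slfn5* to a 5.35-fold rise of *Slfn3*. Of all 12597 genes tested, 48.3% were called at an FDR under 0.05 in this comparison, 24.7% higher and 23.6% lower. The members' median log2 fold change was -1.17, against -0.04 over all genes. *Slfn4* was too low to test. *Slfn5* passed the filter on low counts (about 1.82 CPM in at least 2 libraries) only through its day 0 libraries, and *Slfn3* through the 4 day 5 libraries and 1 of the 4 day 0 libraries. Both thus owed their place among the tested members to the day at which they were higher. The count of tested members called is therefore no support for a change of the family. CPM gives the share of a gene in its library, so a fall is a fall in share, and the amount of RNA per cell was not measured. In bulk RNA, fewer cells that express a gene and a lower share in each cell cannot be told apart.

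*Slfn1*, the founding member and a brake on thymocyte growth, was at 1035 and 1172 CPM at day 0 and at 655 and 367 CPM at day 5 in WT. Both day 5 libraries lay below both day 0 libraries, although they differed from each other by more than the day 0 libraries did. The log2 change was -1.11 ± 0.22 (SE, FDR 0.00139, quasi-likelihood test of edgeR, Benjamini-Hochberg adjusted), a 2.157-fold fall. *Slfn2*, the quiescence factor, went from 686 and 774 CPM to 351 and 267 CPM, with no overlap. Its log2 change was -1.24 ± 0.15 (SE, FDR 2.41e-05, same edgeR test and adjustment), a 2.359-fold fall.

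Among the long members, which reach the nucleus, *Slfn8* and *Slfn5* fell and *Slfn9* rose. *Slfn8* was at 206 and 241 CPM at day 0 and at 56.3 and 41.9 CPM at day 5 in WT, and the groups were far apart. The log2 change of -2.18 ± 0.17 (SE, FDR 3.98e-07, edgeR with Benjamini-Hochberg adjustment) was a 4.528-fold fall. *Slfn5*, an interferon-inducible member, went from 11.4 and 9.95 CPM (64 and 44 reads) to 1.59 and 0.241 CPM (9 reads and 1 read). Its log2 change was -3.39 ± 0.46 (SE, FDR 5.88e-05, edgeR with Benjamini-Hochberg adjustment). The size of that fall rested on the day 5 WT libraries, being -5.34 (FDR 6.74e-05) without replicate 1 and -2.71 (FDR 0.000312) without replicate 2 in the same edgeR test. *Slfn9* went from 8.05 and 6.11 CPM to 18.5 and 11.8 CPM, with no overlap, a log2 change of 1.10 ± 0.30 (SE, FDR 0.00954, edgeR with Benjamini-Hochberg adjustment) or a 2.145-fold rise. The *Slfn9* call was lost without day 0 WT replicate 2 (0.93, FDR 0.0735) and without day 5 WT replicate 1 (0.75, FDR 0.115) in that edgeR test.

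*Slfn3*, an intermediate member known from T-cell and gut studies, had few reads at day 0, with 1.25 and 1.58 CPM (7 reads in each WT library), and was at 8.82 and 6.27 CPM (50 and 26 reads) at day 5. The day 5 libraries lay above all others, and the log2 change was 2.42 ± 0.45 (SE, FDR 0.000725, edgeR with Benjamini-Hochberg adjustment). *Slfn4*, the other intermediate member, best known from myeloid cells, had between 0 and 7 reads in each library and at most 1.33 CPM, so no difference was detectable at this depth.

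The KO-labelled libraries showed the same directions over culture for the called members. Here 5 of the 6 tested members were called, 4 lower and 1 higher, against 50.2% of all genes (26.2% higher and 24.0% lower), with a member median of -1.67 against -0.05 over all genes. That count includes *Slfn5* and *Slfn3*, which owed their place among the tested members to the day at which they were higher, so nothing is read from it. The KO and WT comparisons share no library. *Slfn1* went from 1126 and 1022 CPM at day 0 to 436 and 312 CPM at day 5, a log2 change of -1.52 ± 0.23 (SE, FDR 0.000129, edgeR with Benjamini-Hochberg adjustment). *Slfn2* went from 845 and 762 CPM to 248 and 209 CPM, a log2 change of -1.81 ± 0.15 (SE, FDR 8.2e-07, same test). Both short members were thus without overlap between days, as in WT. *Slfn8* fell from 312 and 279 CPM to 49.7 and 43.4 CPM, a log2 change of -2.67 ± 0.17 (SE, FDR 5.57e-08, edgeR with Benjamini-Hochberg adjustment). *Slfn5* fell from 27.4 and 25.5 CPM (319 and 139 reads) to 1.10 and 0.947 CPM (6 and 5 reads), a log2 change of -4.66 ± 0.42 (SE, FDR 1.59e-06, same test). The day 5 levels of both long members lay within the range of the WT libraries of that day. *Slfn3* rose from 2.49 and 1.65 CPM to 5.89 and 7.01 CPM, a log2 change of 1.58 ± 0.39 (SE, FDR 0.0052, edgeR with Benjamini-Hochberg adjustment). *Slfn9* was at 14.8 and 11.2 CPM at day 0 and at 16.7 and 20.4 CPM at day 5, and its log2 fold change of 0.50 (95% interval -0.09 to 1.09, FDR 0.144, same test) did not pass.

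**Figure D2:**
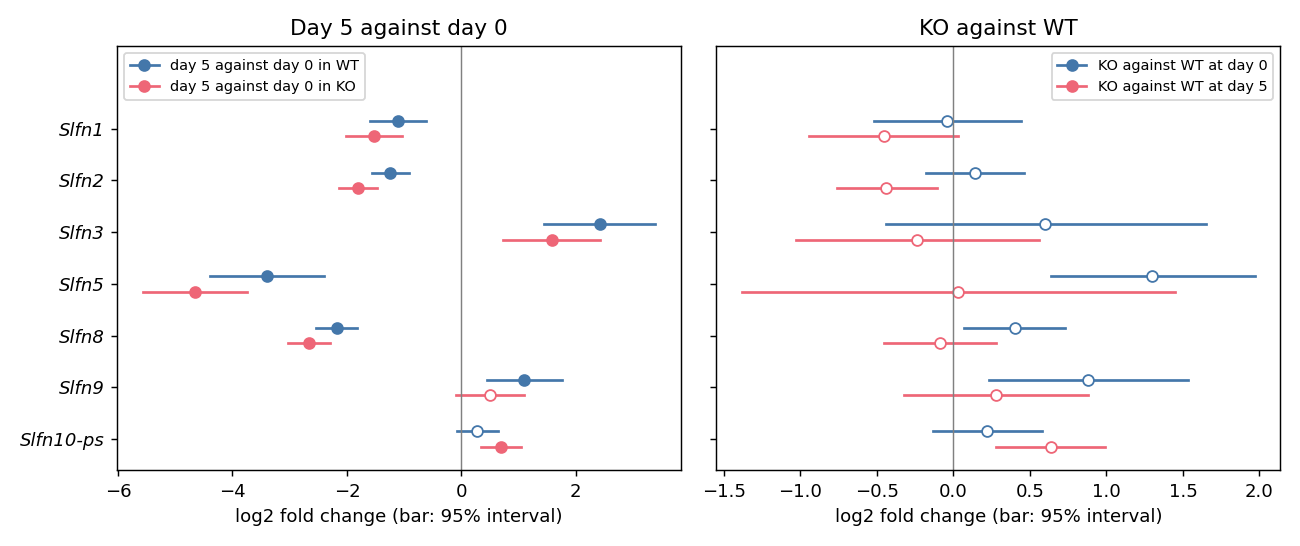
Log2 fold changes with 95% intervals for the 6 tested members and the pseudogene *Slfn10-ps*, day 5 against day 0 on one side and KO against WT on the other. Filled points passed an FDR of 0.05. *Slfn5*, *Slfn8*, *Slfn2* and *Slfn1* fell over culture in both genotypes and *Slfn3* rose, while no genotype difference passed.

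*Slfn8* and *Slfn9*, whose promoters are shown above, are minus-strand neighbours, and the proportion of their reads differed between days. There were 25.58 and 39.56 *Slfn8* reads per *Slfn9* read in the day 0 WT libraries, 21.13 and 24.89 in the day 0 KO-labelled libraries, 3.038 and 3.551 at day 5 in WT, and 2.967 and 2.12 at day 5 in the KO-labelled ones. These ratios are not scaled for gene length, and all day 0 ratios exceeded all day 5 ratios. The ratio of *Slfn1* to *Slfn2* reads moved little by comparison, at 1.509 and 1.514 in WT and 1.332 and 1.341 in the KO-labelled libraries at day 0, and between 1.375 and 1.864 at day 5. *Slfn8* and *Slfn9* share some transcript windows with *Slfn10-ps*, and the part of such reads in the ratio was not tested.

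**Figure D3:**
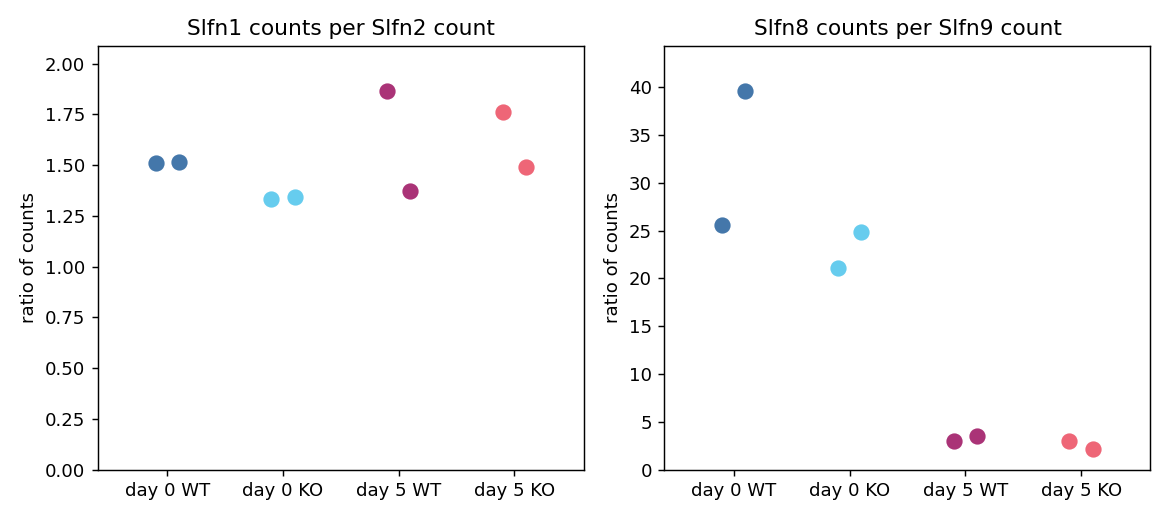
Reads of *Slfn1* per read of *Slfn2* (left) and of *Slfn8* per read of *Slfn9* (right) in each library, on linear axes from 0. The *Slfn8* to *Slfn9* ratio lies between 21.13 and 39.56 at day 0 and between 2.12 and 3.551 at day 5.

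*Slfn10-ps*, the pseudogene between *Slfn8* and *Slfn2*, was at 88.7 and 96.3 CPM at day 0 and 92.2 and 133 CPM at day 5 in WT, where the log2 change of 0.28 ± 0.17 (SE, FDR 0.19, edgeR with Benjamini-Hochberg adjustment) passed only without day 5 WT replicate 1. In the KO-labelled libraries it went from 103 and 113 CPM to 173 and 175 CPM, a log2 change of 0.69 ± 0.16 (SE, FDR 0.00349, same test). Of its 50-base windows 19.7% also occurred in another gene, so its levels are uncertain as well. *Slfn14* had at most 2 reads in a library and *Slfnl1*, a relative on chromosome 4, had 0 in all 8.

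**Figure D4:**
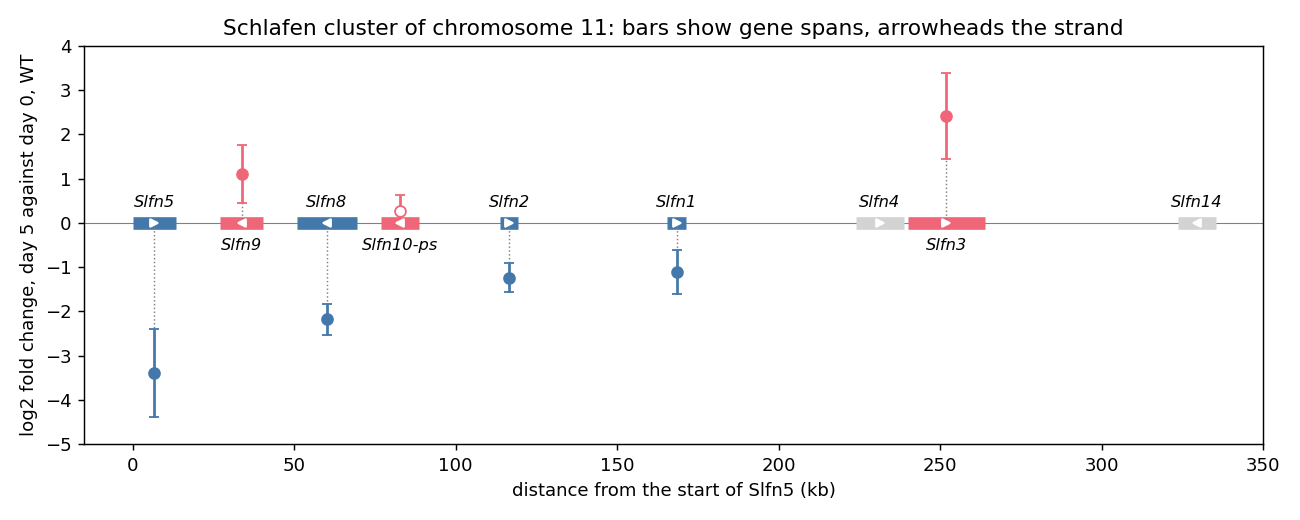
Map of the cluster, with distance from the start of *Slfn5* in kb on the horizontal axis and the WT log2 fold change of day 5 against day 0 on the vertical axis; bars at 0 show gene spans, arrowheads the strand, error bars 95% intervals, filled points an FDR under 0.05, and grey genes were not tested. Genes that fell (*Slfn5*, *Slfn8*, *Slfn2*, *Slfn1*) and rose (*Slfn9*, *Slfn3*) are interspersed along the cluster.

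Genotype was compared at each day to ask whether the KO-labelled libraries differed in Schlafen transcripts. At day 0 no member was called (0 of 6; 3 had an unadjusted p under 0.05, and DESeq2 called 1), against 1.80% of all genes. The member nearest the threshold was *Slfn5*, at 11.4 and 9.95 CPM in WT and at 27.4 and 25.5 CPM in the KO-labelled libraries, with no overlap. Its log2 change was 1.30 ± 0.31 (SE, 95% interval 0.64 to 1.97, FDR 0.0562, edgeR with Benjamini-Hochberg adjustment), a 2.465-fold higher level. It passed in DESeq2 (FDR 0.0457), under 4 other settings and when either day 5 WT library was left out. It did not pass without any 1 of the day 0 libraries or of the day 5 KO-labelled libraries (edgeR FDR 0.0862 to 0.31), and over all settings run, passing or not, its FDR ranged from 0.000582 to 0.31. *Slfn8* was at 206 and 241 CPM in WT and 312 and 279 CPM in the KO-labelled libraries, a log2 fold change of 0.40 (95% interval 0.07 to 0.73, FDR 0.257, edgeR with Benjamini-Hochberg adjustment). *Slfn9* was at 8.05 and 6.11 CPM against 14.8 and 11.2 CPM, a log2 fold change of 0.88 (95% interval 0.23 to 1.53, FDR 0.201, same test). Each of these long members was thus higher in both KO-labelled libraries without passing the adjusted threshold.

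*Slfn3*, with few reads, also did not overlap between genotypes at day 0 (log2 fold change 0.60, 95% interval -0.44 to 1.65), so that 4 of the 6 tested members had no overlap, against 43.4% of all genes. *Slfn1* and *Slfn2*, the abundant short members, had log2 fold changes of -0.04 (95% interval -0.52 to 0.44) and 0.14 (-0.18 to 0.46). These intervals leave room for changes of up to about that size and do not show equal levels. The members' median was 0.50, against -0.00 over all genes.

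At day 5 no member was called either (0 of 6; 1 had an unadjusted p under 0.05, and DESeq2 called 0), against 1.63% of all genes. *Slfn2* was the single member whose groups did not overlap, at 351 and 267 CPM in WT and 248 and 209 CPM in the KO-labelled libraries, against 45.6% of all genes without overlap. Its log2 fold change was -0.44 (95% interval -0.76 to -0.11, FDR 0.187, edgeR with Benjamini-Hochberg adjustment). *Slfn1* had -0.45 (95% interval -0.94 to 0.03), *Slfn8* -0.09 (-0.45 to 0.28) and *Slfn5*, with 1 to 9 reads per library, 0.03 (-1.38 to 1.45). The interval of *Slfn5* was the widest of these, and its estimate was 2.01 without day 5 WT replicate 1, -0.62 without replicate 2 and 0.75 with thinned libraries. *Slfn10-ps* was higher in the KO-labelled libraries, at 173 and 175 CPM against 92.2 and 133 CPM, without passing (0.64, SE 0.16, FDR 0.0761, range 0.0166 to 0.445 over the other settings, edgeR with Benjamini-Hochberg adjustment, DESeq2 among those that called it).

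The change in genotype difference between days, tested as an interaction, was called for 0 of the 6 members in edgeR and in DESeq2 (1 had an unadjusted p under 0.05), against 0.159% of all genes. All 6 estimates were negative, from -0.41 for *Slfn1* to -1.27 for *Slfn5*, with a median of -0.59 against 0.02 over all genes. Without day 5 WT replicate 1 the estimates of *Slfn5* (0.70) and *Slfn1* (0.07) were positive. *Slfn9*, called over culture in WT alone, had an interaction of -0.60 ± 0.41 (SE), which did not pass. *Slfn2* had the smallest p (-0.58, 95% interval -1.03 to -0.12, FDR 0.303, edgeR with Benjamini-Hochberg adjustment).

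Genes of the pathways the family belongs to were counted for the same comparisons, and each count over culture is set against the share of all genes called. Of 28 interferon-stimulated genes, 27 were tested, and over culture in WT 14 fell and 4 rose (median log2 fold change -0.82), where 23.6% of all genes fell and 24.7% rose (median -0.04). In the KO-labelled libraries 16 fell and 3 rose (median -1.15), where 24.0% of all genes fell and 26.2% rose (median -0.05). *Oasl1*, an oligoadenylate synthetase-like gene, fell most (-3.26, SE 0.64, FDR 0.00111), with *Ifit1*, which binds foreign RNA (-2.90, SE 0.46, FDR 0.000239, both edgeR with Benjamini-Hochberg adjustment). *Isg20*, an exonuclease (1.76, SE 0.28, FDR 0.000231), and *Samhd1*, which degrades deoxynucleotides (1.39, SE 0.13, FDR 1.83e-06), rose in the same edgeR test with Benjamini-Hochberg adjustment. The sizes rested on the day 5 WT libraries: without replicate 1 *Oasl1* was at -5.76, *Ifit1* at -4.46 and *Isg20* at 1.11, and without replicate 2 *Oasl1* was at -2.50 and *Ifit1* at -2.18, all still called. Between genotypes 1 of the 27 was called at each day (medians 0.18 and -0.19), against 1.80% of all genes at day 0 and 1.63% at day 5. *Samhd1* was higher in the KO-labelled libraries at day 0 (0.74, SE 0.12, FDR 0.00899) and *Stat2*, a transcription factor of the interferon response, at day 5 (0.95, SE 0.17, FDR 0.0172, both edgeR with Benjamini-Hochberg adjustment). The *Samhd1* call was lost without either day 0 WT library or KO-labelled replicate 1 (edgeR FDR up to 0.149), and that of *Stat2* without any 1 of the day 5 libraries (edgeR FDR up to 0.261) or with thinned libraries (edgeR FDR 0.0508).

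The receptors of interferons and their kinases gave 7 tested genes, of which 3 fell and 1 rose over culture in WT (median -0.46) and 1 fell and 1 rose in the KO-labelled libraries (median -0.34). With 48.3% and 50.2% of all genes called, these counts are not a result about the list. The kinases *Jak1* (-1.32) and *Tyk2* (-0.94) were among those that fell in WT, the *Tyk2* call being lost without replicate 2 of WT at either day (edgeR FDR up to 0.127) or with an offset for GC content and exon length (edgeR FDR 0.0639), and the type II receptor subunit *Ifngr1* rose (1.77). Between genotypes 1 of the 7 was called at day 0, against 1.80% of all genes, and 0 at day 5, against 1.63%. That gene was *Ifngr1*, higher in the KO-labelled libraries (1.26, SE 0.13, FDR 0.000279, edgeR with Benjamini-Hochberg adjustment). Of 18 factors of T-cell quiescence, the state in which *Slfn2* acts, 16 were tested, and 11 fell in each genotype and the rest did not pass (median -1.08 in WT and -1.06 in the KO-labelled libraries), where 23.6% and 24.0% of all genes fell. *Il7r*, the interleukin-7 receptor, fell most (-5.39, SE 0.19, FDR 4.59e-10), then *Tcf7*, a transcription factor of naive and memory T cells (-2.44, SE 0.12, FDR 6.6e-09, both edgeR with Benjamini-Hochberg adjustment). Of these 16, 1 was called between genotypes at each day, against 1.80% of all genes at day 0 and 1.63% at day 5. *Btg2*, an inhibitor of proliferation, was higher in the KO-labelled libraries at day 0 (0.52, SE 0.12, FDR 0.0449), and *Il7r* at day 5 (1.14, SE 0.18, FDR 0.00909, both edgeR with Benjamini-Hochberg adjustment). The *Btg2* call was lost without any 1 of the day 0 libraries or of the day 5 KO-labelled libraries (edgeR FDR up to 0.355), with a replicate block (edgeR FDR 0.055) and with libraries thinned to the smallest total (edgeR FDR 0.0622). The *Il7r* call at day 5 was lost without KO-labelled replicate 2 (edgeR FDR 0.0989) and with only the 4 libraries of the comparison (edgeR FDR 0.0543).

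Of 4 genes that cut transfer RNA or shield it, 3 were tested, and 2 rose in each genotype (median 0.81 in WT and 0.64 in the KO-labelled libraries), where 24.7% and 26.2% of all genes rose; 3 genes are too few to read as a group. *Rnh1*, the ribonuclease inhibitor, had a log2 fold change of 1.14 in WT (SE 0.12, FDR 8.46e-06), and *Nsun2*, a transfer RNA methyltransferase, one of 0.81 (SE 0.21, FDR 0.00654, edgeR with Benjamini-Hochberg adjustment). The *Nsun2* call was lost without WT replicate 1 of either day (edgeR FDR up to 0.0829).

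Of 48 genes that start within 500 kb of the cluster, 15 were tested, and over culture 4 rose and 3 fell in WT (median 0.00), as in the KO-labelled libraries (median 0.25), a share close to the 48.3% and 50.2% of all genes called and so not a result about the neighbours. Between genotypes 1 of the 15 was called at day 0, against 1.80% of all genes, and 0 at day 5, against 1.63%. The neighbour called was *Ccl5*, a chemokine of effector T cells, which was at a mean of 13.6 CPM in WT and 95.6 CPM in the KO-labelled libraries at day 0, a log2 change of 2.78 ± 0.41 (SE, FDR 0.004, edgeR with Benjamini-Hochberg adjustment). That call was lost without either day 0 WT library (edgeR FDR up to 0.11).

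**Figure D5:**
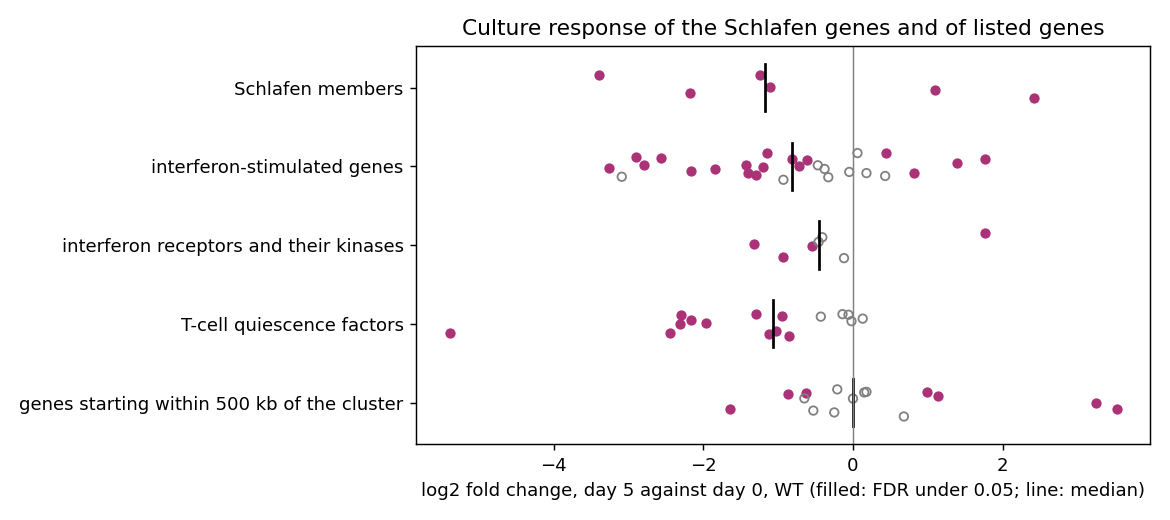
WT log2 fold change of day 5 against day 0 for each tested gene (points) of the Schlafen group and of the lists other than the transfer RNA genes, with the median (line), filled where the FDR was under 0.05; vertical jitter separates points. The Schlafen group spans -3.39 to 2.42, with 4 members below 0 and 2 above.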

How the data were processed

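RNA was measured in 8 libraries of splenic CD8+ T cells, 2 per group. The authors deposited 1 table of raw counts by gene symbol for every library, made per the submitters' processing notes with HISAT2 2.1.0 and HTSeq 0.11.1 on mm10 (GRCm38). Counts were not normalized, and the annotation and strand setting are not given in the sources used here. Genes held 21.16% to 24.5% of the records counted, and alignments that were not unique held 31.82% to 37.44%. Depth was 4170126 to 11117971 counts per library.

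All 8 libraries entered 1 quasi-likelihood fit in edgeR 4.0.16 (R 4.3.3), with a mean per group, TMM factors and the default filter (minimum count 10), leaving 12597 genes and a biological coefficient of variation of 15% in common. P-values were two-sided and adjusted by Benjamini-Hochberg over all genes tested, and called at an FDR under 0.05. Standard errors were the log2 fold change divided by the square root of F. DESeq2 1.42.0 was an alternative. Genes were located with GENCODE M21, in which 46394 of 48321 symbols matched.

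The 7 members, the gene lists and the tests were chosen with earlier results of these data known. The genes named were the 7 members, the counts of their relatives, in each list the 2 called genes with the largest change in each direction over culture in WT and those called between genotypes, of the neighbours of the cluster only those called between genotypes and the 3 genes most correlated with each member.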

Additional observations from a re-analysis of the deposited data

How the results depend on the processing

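Members called at day 0 between genotypes went from 0 to 1 (*Slfn5*) with no filter on low counts (FDR 0.00308), with only the 4 libraries of the comparison (FDR 0.0183), under the form of the test in edgeR 4 (FDR 0.0141), with the edgeR exact test (FDR 0.000582) and with DESeq2 (FDR 0.0457), and ranged from 0 to 1 when a library was left out, the call being made without day 5 WT replicate 1 (edgeR FDR 0.0169) or replicate 2 (edgeR FDR 0.0147). Members called over culture in WT ranged from 5 to 6 with a library left out. The number of members called stayed at 0 at day 5 and for the interaction, and at 5 over culture in the KO-labelled libraries, under every setting run.

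No change over culture turned direction, and 7 of the estimates between genotypes and of the interaction did. *Slfn8* at day 5 was 0.0227 with an offset for GC content and exon length. With a library left out, *Slfn1* ranged from -0.13 to 0.0613 at day 0 and from -0.81 to 0.0364 at day 5, *Slfn3* from -0.45 to 0.0489, *Slfn5* from -0.62 to 2.01 and *Slfn8* from -0.27 to 0.16 at day 5, and the interaction from -0.80 to 0.0717 for *Slfn1* and from -1.95 to 0.70 for *Slfn5*. The cause was not tested. Thinning each library to 4170126 counts, chosen after seeing the data, gave an *Slfn5* interaction of -0.38 and a day 5 difference of 0.75. The *Slfn8* level at day 0 in WT was 62.6 CPM per kb over unique windows, against 54.7.

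Library totals in place of TMM moved the median of all genes over culture in WT from -0.039 to -0.174 and the split of calls from 3112 higher and 2969 lower to 2668 and 3560, with no member changing direction. Calls over all genes at day 0 were 227, against 449 by the exact test, 434 with no filter and 38 to 276 with a library left out, and at day 5 205, against 454, 418, 350 by DESeq2 and 32 to 249. Counts of each list over culture with a library left out were 13 to 19 (WT) and 13 to 20 (KO-labelled) interferon-stimulated genes, 2 to 4 and 2 receptors and kinases, 11 and 10 to 11 quiescence factors, 1 to 2 and 1 to 2 transfer RNA genes, and 4 to 8 and 3 to 8 neighbours. Replicate numbers are shared by the groups, but the labels name no common source, and deviations of same-numbered libraries correlated from -0.0742 to 0.228. A replicate block called 0, 0, 6, 5 and 0 members, as without it, and ended the day 0 call of *Btg2*. Groups of 2 limit every spread to the shared estimate, and *Slfn4*, and *Slfn5* at day 5, are limited by depth.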

Other observations

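The genes whose levels were most like those of each member over the 8 libraries were found by Pearson's r of log2 CPM (prior count 2), as a description. The libraries fall into a day 0 and a day 5 cluster, and all points share that split. *Slfn1* was nearest to *Tsr1* (0.996), a ribosome assembly factor, then *Oasl1* (0.995) and *Elmo1* (0.992). *Slfn2* was nearest to *Phf20l1* (0.996), *Prkdc* (0.994) and *Pydc3* (0.994). *Slfn8* was nearest to *Eif4g2*, *Abcg1* and *Sp100*, an interferon-inducible nuclear body protein (0.998 each), and *Slfn5* to *Gpatch11* (0.994), *Gba2* (0.993) and *Ms4a6b* (0.992). The rising *Slfn3* was nearest to *Mettl6* (0.994), *Gm43124* (0.992) and *Tpp2* (0.991). *Slfn9* had no neighbour as close, with *Pigu* (0.975), *Jazf1* (0.966) and *2010109I03Rik* (0.960). Within the family r was 0.979 between *Slfn1* and *Slfn2*, 0.982 between *Slfn2* and *Slfn8*, 0.810 between *Slfn3* and *Slfn9* and -0.623 between *Slfn8* and *Slfn9*.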
